A study of Mus musculus with 27 samples.

Results

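Of the 28427 genes named on the array, 9 genes of white and brown fat are described here: Adipoq, Cfd, Lep and Retn, which encode hormones and other secreted proteins of fat cells; Plin1, Cidec and Lipe, which encode proteins of the lipid droplet and its breakdown; Fabp4, a carrier of fatty acids; and Ucp1, the uncoupling protein of brown fat. They were chosen by the gene names of their probes and with their log2 ratios in these 27 arrays known, so their levels and differences are given as a description, without a test. Of the 9 genes, 8 had a probe well above background on 10 or more arrays, and Lep had none on any array. Expression was measured in mouse esophagus on Agilent arrays with 2 colours, 3 arrays for each of 9 groups. Wild-type C57BL/6J esophagi were taken whole at embryonic days 11.5 (E11.5) and 15.5 (E15.5), on the day of birth (P0) and at postnatal day 7 (P7). Whole esophagi of Nrf2-/-, Keap1-/- and Nrf2-/-Keap1-/- mice were taken at P7, and adult tissue was the epithelium alone of wild-type and Nrf2-/- mice at 8 weeks. Whole here is set against epithelium alone. Part of each esophagus was kept for histology, and the methods do not say which part gave the RNA. The mutants are constitutive knockouts, so no cell type was singled out for the deletion, and were kept on a C57BL background; per the methods each RNA came from an individual esophagus. No adult Keap1-/- group was sampled, and age and tissue cannot be told apart between P7 and adult.

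White adipocytes store triglyceride in a large droplet coated by perilipin and CIDE proteins and release hormones such as adiponectin (Adipoq), the serine protease adipsin (Cfd), leptin (Lep) and, in mice, resistin (Retn). Brown adipocytes hold many small droplets and burn fatty acids for heat through Ucp1, and both kinds of cell depend on the nuclear receptor Pparg together with Cebpa. Nrf2 is a transcription factor that binds antioxidant response elements, and Keap1 holds it back. Adipocytes are not part of the esophageal epithelium but adipose tissue can lie in the loose tissue around the organ. Whether fat was dissected with these esophagi was not tested.

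The promoters of the 4 genes with more than a 10-fold higher mean in Nrf2-/-Keap1-/- than in wild-type esophagi at P7 (Cfd, Ucp1, Adipoq and Plin1) are shown, a choice made from these values. Each is 300 bases long, the last 50 of them after a RefSeq start of transcription in GRCm38.p6, written 5′ to 3′ on the strand of the gene. Capitals mark matches, on either strand, to the CCAAT box (CCAAT), to AGGTCA, a core that nuclear receptors such as Pparg bind, or to the core of the antioxidant response element (TGACNNNGC).
Adipoq, chr16:23146286-23146585, plus strand: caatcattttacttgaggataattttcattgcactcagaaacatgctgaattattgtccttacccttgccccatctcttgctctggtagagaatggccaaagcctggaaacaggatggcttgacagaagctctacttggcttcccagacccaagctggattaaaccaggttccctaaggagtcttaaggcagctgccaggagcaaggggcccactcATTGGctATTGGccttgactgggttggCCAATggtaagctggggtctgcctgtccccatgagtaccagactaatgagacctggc
Cfd, chr10:79890603-79890902, plus strand: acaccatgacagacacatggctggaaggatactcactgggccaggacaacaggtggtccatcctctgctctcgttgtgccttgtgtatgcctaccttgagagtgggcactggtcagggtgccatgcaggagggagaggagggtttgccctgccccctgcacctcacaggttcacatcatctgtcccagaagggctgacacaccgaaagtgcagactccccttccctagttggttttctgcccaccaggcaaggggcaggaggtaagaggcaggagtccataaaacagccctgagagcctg
Plin1, chr7:79732727-79733026, minus strand: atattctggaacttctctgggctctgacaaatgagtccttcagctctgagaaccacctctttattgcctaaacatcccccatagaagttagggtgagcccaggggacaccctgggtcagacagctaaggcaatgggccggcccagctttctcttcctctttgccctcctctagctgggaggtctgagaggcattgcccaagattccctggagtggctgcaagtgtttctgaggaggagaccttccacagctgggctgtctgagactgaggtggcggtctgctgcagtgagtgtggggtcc
Ucp1, chr8:83290098-83290397, plus strand: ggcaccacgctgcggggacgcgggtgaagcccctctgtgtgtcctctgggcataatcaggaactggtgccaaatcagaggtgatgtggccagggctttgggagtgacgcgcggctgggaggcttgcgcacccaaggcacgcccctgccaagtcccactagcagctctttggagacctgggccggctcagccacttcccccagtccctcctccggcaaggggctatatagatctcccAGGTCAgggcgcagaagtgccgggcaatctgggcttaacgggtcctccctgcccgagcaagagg
The Adipoq promoter held 3 CCAAT matches, the Ucp1 promoter held 1 AGGTCA match, and the other 2 promoters shown held no match. Among all 32851 RefSeq promoters of this length, 37.4% held CCAAT, 16.3% held AGGTCA and 12.4% held TGACNNNGC, and a TGACCT followed by any base and GC would count for both of the latter. The antioxidant response core was not among the letters of these windows for any of the 8 members with an entry, counting both starts listed for Cidec and Lipe; Fabp4 had none. These matches are a description of letters and carry no measurement of binding.

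Esophageal RNA was labelled with Cy5 and a reference pooled from 11 mouse cell lines with Cy3, so each level below is a log2 ratio of esophagus to reference after background correction and loess normalization, and levels of different genes cannot be set against each other. A spot is called well above background by the scanner software, and a ratio near 0 on a dim spot is not a measured level. The Cy3 reference was well above background on 10 of 27 arrays for Ucp1, 15 for Cfd, 16 for Plin1, 22 for Adipoq and 25 for Cidec. The ratios of these genes, and folds taken from them, thus rest in part on a reference that was not measured. For Fabp4, Lipe and Retn it was on all 27. Across arrays, the median Cy5 intensity of an array was 80.6 to 216, and 58.3% to 68.7% of probes were well above background. Nfe2l2, which encodes Nrf2, was at -3.89 ± 0.06 (SD, n = 3) in Nrf2-/- and -4.12 ± 0.03 in Nrf2-/-Keap1-/- esophagi at P7 against -0.26 ± 0.28 in wild type, and at -3.32 ± 0.42 in adult Nrf2-/- against 0.98 ± 0.25 in wild-type epithelium. Keap1 ranged from -0.26 to 0.64 in Keap1-/- esophagi and from 0.42 to 1.00 in wild type, which overlap, and lay at -0.34 ± 0.16 in Nrf2-/-Keap1-/-; whether its probes lie in the deleted part is not given in the sources used here. Among the embryos, the array labelled E11.5 replicate 3 correlated at 0.98 over genes with E15.5 replicates 2 and 3, and the array labelled E15.5 replicate 1 at 0.96 and 0.93 with E11.5 replicates 1 and 2, so the members' embryonic values are given by array under their labels. No other array shared a slide or scan day with the 3 Keap1-/- arrays, and the other P7 arrays were read with another software version, so genotype, slide and scan cannot be told apart for them, and no mutant group at P7 shared a slide with wild type of that age. Nrf2-/-Keap1-/- replicate 1 shared a slide with the 3 Nrf2-/- arrays of P7, and its replicates 2 and 3 with wild-type adult replicates 1 and 2. The adult Nrf2-/- arrays shared no slide with wild-type adult arrays, and wild-type adult replicates 1 and 2 were read on another scan day with another software version. Median Cy5 was 188 to 216 in adult Nrf2-/- and 80.6 to 159 in adult wild type, so genotype and slide cannot be told apart in adults. With whole tissue, more fat cells and more RNA of these genes in each cell cannot be told apart.

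Adipoq was measured in P7 esophagi alone. It was well above background on 11 arrays, all of P7 esophagi, and its ratio on the embryonic, P0 and adult arrays was at most 0.10. In wild-type P7 esophagi it was -0.06, 2.41 and 0.64 in replicates 1, 2 and 3, in Nrf2-/- 1.52, 2.94 and 2.23, in Keap1-/- 1.99, 2.74 and 2.84, and in Nrf2-/-Keap1-/- 5.06, 4.35 and 5.11. The Nrf2-/-Keap1-/- arrays were above the other 9 arrays of this age, while wild-type replicate 2 lay within the range of the Nrf2-/- arrays. The mean was 14.3-fold higher in Nrf2-/-Keap1-/- than in wild type (log2 difference 3.84 ± 0.78 SE), 2.35-fold higher in Nrf2-/- (1.23 ± 0.84) and 2.87-fold higher in Keap1-/- (1.52 ± 0.78). Wild-type replicate 1 was not well above background, so the wild-type mean rests on 2 measured arrays of 3. Without wild-type replicate 2, these differences were 4.55, 1.94 and 2.23.

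Cfd was lowest in wild type and highest in Nrf2-/-Keap1-/- esophagi at P7. Its log2 ratio in wild-type P7 esophagi was 0.32, 0.96 and 0.88, in Nrf2-/- 2.41, 3.56 and 3.34, in Keap1-/- 3.55, 4.61 and 4.94, and in Nrf2-/-Keap1-/- 5.55, 5.92 and 6.67. Wild type lay below every mutant array and Nrf2-/-Keap1-/- above every other array, whereas the Nrf2-/- and Keap1-/- ranges overlapped, at 3.56 and 3.55. Over wild type, the mean was 40.2-fold higher in Nrf2-/-Keap1-/- (5.33 ± 0.38 SE), 12.6-fold in Keap1-/- (3.65 ± 0.46) and 5.22-fold in Nrf2-/- (2.38 ± 0.40). The spots of Nrf2-/-Keap1-/- replicates 1 and 2 were marked as outliers by the scanner software. With marked spots left out, the first of these differences was 5.99, a value that rests on replicate 3 alone for Nrf2-/-Keap1-/-. Over all alternatives this difference ranged from 4.10 to 5.99. At P0 the gene was not well above background, and the wild-type P7 mean was at least 1.71-fold higher.

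Lep and Retn, the other hormones, were weak or not measured. Lep had ratios from -0.11 to 0.11 and neither channel was well above background on any array, so these arrays give no level for leptin. Retn was well above background on 10 arrays, at -0.21, 1.08 and 0.79 in Nrf2-/-Keap1-/- and at -0.24, 0.42 and 0.25 in Keap1-/- esophagi, with Keap1-/- replicate 1 below that mark. The rest of the 10 were E15.5 replicate 1 (-0.19), wild-type adult replicate 3 (-0.24) and all adult Nrf2-/- arrays (-0.22, -0.32 and -0.04). The wild-type P7 arrays were not well above background, and the means were at least 1.70-fold higher in Nrf2-/-Keap1-/- and at least 1.38-fold higher in Keap1-/-. In Nrf2-/- esophagi at P7 no array measured Retn.

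Plin1, which coats the lipid droplet and guards it from lipases, followed Adipoq. It was 0.24, 2.16 and 0.60 in wild-type P7 esophagi, 1.67, 2.38 and 2.59 in Nrf2-/-, 0.79, 1.59 and 1.62 in Keap1-/-, and 5.67, 4.01 and 4.68 in Nrf2-/-Keap1-/-. The last group was 13.8-fold above wild type in the mean (3.79 ± 0.76 SE) and Keap1-/- was 10.9-fold below it (-3.45 ± 0.55), and its arrays did not overlap any other. Nrf2-/- was 2.32-fold above wild type and Keap1-/- 1.26-fold, both overlapping wild type through its replicate 2, without which the 3 differences were 4.37, 1.79 and 0.92. In embryos, at P0 and in adults, Plin1 lay between 0.12 and 0.55.

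Cidec, which fuses lipid droplets into larger ones, varied most within wild type. Its ratio was 4.23, 1.44 and 0.15 in wild-type P7 esophagi, 1.99, 2.27 and 3.20 in Nrf2-/-, 1.31, 3.16 and 2.94 in Keap1-/-, and 5.71, 4.56 and 4.69 in Nrf2-/-Keap1-/-. The high wild-type replicate 1 was marked as an outlier spot by the scanner software and was the P7 array on which Adipoq was lowest, and 2 of the Nrf2-/-Keap1-/- spots bore the same mark. The mean in Nrf2-/-Keap1-/- was 8.29-fold above wild type (3.05 ± 1.26 SE), and the log2 difference was 3.90 with marked spots left out. The latter sets Nrf2-/-Keap1-/- replicate 3 alone against wild-type replicates 2 and 3. In adult epithelium Cidec was 0.65, 0.03 and 0.60 in wild type and 1.12, 1.26 and 1.69 in Nrf2-/-, which did not overlap, a 1.91-fold higher mean.

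Lipe, the hormone-sensitive lipase, had another pattern. It was measured on all 27 arrays and lay between -0.37 and 0.07 in wild-type embryos and pups, at 0.26, 0.15 and 0.14 in Nrf2-/- esophagi at P7, and at 0.61, 0.42 and 0.45 in Nrf2-/-Keap1-/-. Keap1-/- esophagi, at 0.34, 1.40 and 1.74, had the highest mean of this age. Adult epithelium lay within the Keap1-/- range, at 1.40, 0.82 and 0.83 in wild type and 1.55, 1.69 and 1.44 in Nrf2-/-. Both of its probes gave Keap1-/- the highest mean at P7, at 1.41 ± 0.78 and 0.91 ± 0.68 (SD, n = 3).

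Fabp4, which capillary endothelium and macrophages as well as adipocytes are known to express, was well above background on all 27 arrays. It was at 3.90, 4.06 and 4.11 at P0, at 5.21, 4.03 and 4.80 in wild-type P7 esophagi, and between 4.59 and 5.86 in the 3 mutant groups of that age, whose ranges all overlapped that of wild type. In adults it was 1.32, 1.96 and 2.01 in wild type and 1.12, 1.41 and 1.59 in Nrf2-/- epithelium, and the wild-type mean was 7.55-fold lower than at P7. Of the embryonic arrays, E15.5 replicate 1 (0.91) lay with E11.5 replicates 1 and 2 (1.26 and 0.71), and E11.5 replicate 3 (3.49) with E15.5 replicates 2 and 3 (3.53 and 3.60). The mean levels of its 3 probes in wild-type P7 esophagi were 4.99, 5.85 and 3.19, and outlier marks fell on 24 of its probe values.

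Ucp1, which marks active brown adipocytes, was -0.03, -0.26 and 0.42 in wild-type P7 esophagi, and was well above background on the last of these alone. It was 2.54, 1.96 and 4.29 in Nrf2-/-, 0.48, 1.40 and 1.78 in Keap1-/-, and 5.63, 2.30 and 5.13 in Nrf2-/-Keap1-/-. The Cy5 signals of the last 3 arrays before correction were 31030, 261 and 2921, so replicates 1 and 3 had similar ratios but unlike signals. All mutant arrays lay above wild type, and Nrf2-/-Keap1-/- replicate 2 lay within the Nrf2-/- range. The means were 19.8-fold above wild type in Nrf2-/-Keap1-/- (4.31 ± 1.06 SE), 7.38-fold in Nrf2-/- (2.88 ± 0.73) and 2.26-fold in Keap1-/- (1.18 ± 0.44). With 1 of 3 wild-type arrays well above background, these sizes are set largely against a level that was not measured. The first of these was 3.69 on the log2 scale with the marked outlier spot of Nrf2-/-Keap1-/- replicate 1 left out. In adult epithelium Ucp1 was 0.64, 0.29 and 1.05 in wild type and between 0.69 and 1.38 in Nrf2-/-, which overlapped.

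**Figure D1:**
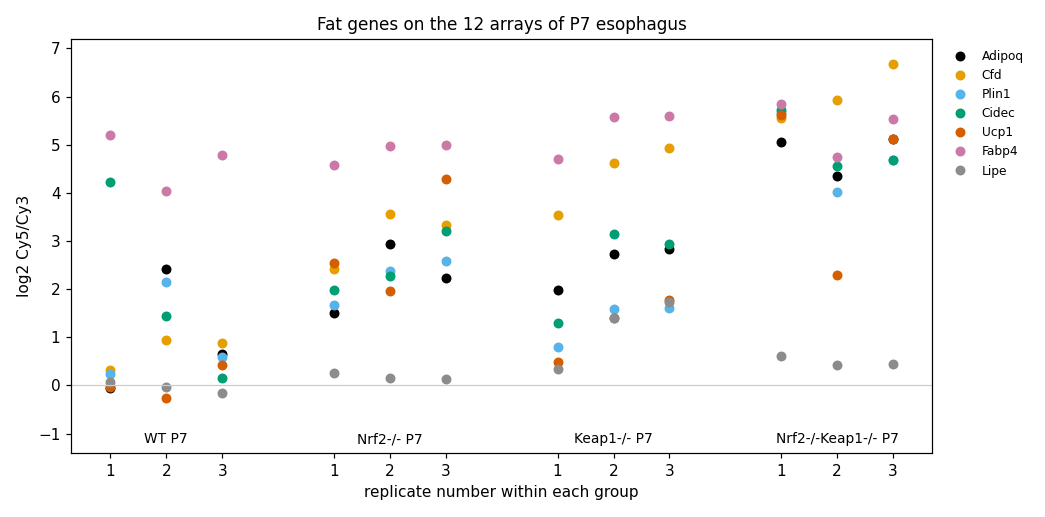
Log2 of Cy5 over Cy3 of 7 fat genes on the 12 arrays of P7 esophagus, with 3 replicates in each of 4 genotypes; each point is an array and each colour a gene. In Nrf2-/-Keap1-/- replicate 2, Ucp1 is at 2.30 while Adipoq is at 4.35, and in wild-type replicate 1 Cidec is at 4.23 while Adipoq is at -0.06.

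By count, 7 of the 9 members were higher in Nrf2-/-Keap1-/- than in wild-type P7 esophagi on every array (11.7% of the 19201 tested genes did not overlap in this direction), 4 in Keap1-/- (20.7% of genes) and 3 in Nrf2-/- (8.11%). Keap1-/- was below Nrf2-/-Keap1-/- without overlap for 5 members, Adipoq, Cfd, Plin1, Cidec and Ucp1 (26.5% of genes), and above it in the mean for Lipe. In adult epithelium, Nrf2-/- was above wild type without overlap for 2 members, Cidec and Lipe (13.3% of 18173 tested genes). The members were chosen with these values in view, so nothing is read from these counts. The median difference of the 9 members from wild type was 3.05 in Nrf2-/-Keap1-/-, 0.61 in Keap1-/- and 0.55 in Nrf2-/-.

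Some slides held arrays of more than 1 group. On the slide of Nrf2-/-Keap1-/- replicate 1, Adipoq was 5.06 in that array and 1.52 to 2.94 in the Nrf2-/- arrays, Plin1 was 5.67 and 1.67 to 2.59, and Cfd was 5.55 and 2.41 to 3.56. On the slide of replicates 2 and 3, Adipoq was 4.35 and 5.11 in these arrays and -0.23 and -0.07 in the wild-type adult arrays. The adult arrays were of epithelium, and Adipoq was well above background on no adult array. On that slide genotype, age and tissue therefore cannot be told apart. Neither slide held a wild-type P7 array, so these values do not separate genotype from slide against wild type of that age. Across the 12 P7 arrays, Pearson's r with Adipoq was 0.93 for Plin1, 0.90 for Cfd, 0.73 for Ucp1, 0.67 for Retn, 0.63 for Cidec, 0.41 for Fabp4 and 0.33 for Lipe, a description over arrays that share genotypes and slides.

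A list of 68 further fat genes, none of them a member, was tested across all genes with limma, and a gene was called at a Benjamini-Hochberg adjusted p of at most 0.05. On the array, 67 of them had a probe; Adrb3 was not matched. Since the list was drawn up with earlier results of these data known, its counts are set beside those of all tested genes and not tested themselves.

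In Keap1-/- esophagi, 20 of 62 tested list genes rose (32.3%; 15.4% of all tested genes) and 6 fell (9.68%; 18% of all). The median difference of the list was 0.43, against -0.02 over all genes. Fabp5, a fatty acid carrier of keratinocytes and other cells, rose 17.2-fold (4.11 ± 0.37 SE, limma adjusted p = 2.36e-05), Plin4, a droplet coat protein, 4.64-fold (2.21 ± 0.32, adjusted p = 0.000508), Cpt1b, the muscle and brown fat form of carnitine palmitoyltransferase, 3.28-fold (1.72 ± 0.46, adjusted p = 0.016) and Pparg 3.18-fold (1.67 ± 0.28, adjusted p = 0.00136). Cebpa also rose (1.43 ± 0.18, adjusted p = 0.000248). Genes that fell included the retinol carrier Rbp4 (-4.07 ± 1.07, adjusted p = 0.0143), the amino acid transporter Slc7a10 (-1.16 ± 0.22, adjusted p = 0.00268), the amine oxidase Aoc3 (-0.97 ± 0.24, adjusted p = 0.00988) and Nnat (-0.72 ± 0.25, adjusted p = 0.0452), for which the difference was 0.05 with the processed signals of the software. Without wild-type replicate 2, the differences were 1.006 for Cpt1b and -3.35 for Rbp4, and the Nnat call was lost without wild-type replicate 1 or 3 or Keap1-/- replicate 1 or 2 (adjusted p = 0.0898, 0.134, 0.144 and 0.0905).

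By role, genes higher in Keap1-/- were 5 of 6 of lipid and glucose uptake, 7 of 14 of lipid synthesis and 4 of 9 of the lipid droplet and lipolysis. They were also 2 of 8 transcription factors and receptors and 2 of 13 brown fat genes. None of the 12 tested genes of secreted and other adipocyte proteins rose, and 4 fell. Over all tested genes 15.4% rose and 18% fell, and the share of brown fat genes that rose was the same 15.4%. Lipid synthesis genes that rose, named after their values were seen, included Acly (0.57 ± 0.11, limma adjusted p = 0.00306), Fasn (0.53 ± 0.15, adjusted p = 0.017) and Dgat2 (1.04 ± 0.24, adjusted p = 0.00696), enzymes that many tissues use to make fatty acids and triglyceride. The brown fat genes Cidea (-0.36 ± 0.21, adjusted p = 0.211) and Prdm16 (-0.06 ± 0.19, adjusted p = 0.832) did not pass. In the same comparison, 5 of 10 stroma, 5 of 10 smooth muscle and 7 of 10 macrophage markers fell. Those that rose were 3 of 10 endothelial, 2 of 10 striated muscle and 3 of 9 squamous markers, beside the same shares over all genes. The part of these marker lists in the fat genes was not tested.

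In Nrf2-/- esophagi at P7, none of the 62 list genes was called by limma, 16 had an unadjusted p under 0.05, and the lowest adjusted p was 0.347. Over all genes 0.00521% were called higher and 0.0104% lower. The median difference was 0.30, with 46 of 62 genes above 0, against a median of -0.003 over all genes. Values for the regulators were -0.21 ± 0.28 SE for Pparg (adjusted p = 0.815), 0.17 ± 0.18 for Cebpa (adjusted p = 0.762), -0.27 ± 0.21 for Cidea (adjusted p = 0.656) and -0.10 ± 0.19 for Prdm16 (adjusted p = 0.879). All 10 macrophage and all 10 endothelial markers had higher means than in wild type, as did 9 of 10 striated muscle and 1 of 10 smooth muscle markers. The median differences of these lists were 0.28, 0.21, 0.53 and -0.14. None of these markers was called, and their part was not tested.

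In Nrf2-/-Keap1-/- esophagi, 2 list genes rose, 3.23% of 62 against 0.323% of all genes, and none fell (0.135% of all), while 25 had an unadjusted p under 0.05. They were Scd1, a desaturase of fatty acids (0.82 ± 0.12 SE, limma adjusted p = 0.0264), and Slc36a2, an amino acid transporter used as a brown fat surface marker (1.77 ± 0.32, adjusted p = 0.0464). Slc36a2 was between -0.29 and 0.15 on the wild-type arrays, 0.26 to 0.51 in Nrf2-/-, 0.09 to 0.80 in Keap1-/- and 0.94 to 2.40 in Nrf2-/-Keap1-/-. The median of the list was 0.50, with 46 of 62 genes above 0. Pparg (0.49 ± 0.28, adjusted p = 0.398), Cebpa (-0.12 ± 0.18, adjusted p = 0.796), Cidea (-0.27 ± 0.21, adjusted p = 0.536) and Prdm16 (0.24 ± 0.19, adjusted p = 0.54) did not pass. No list gene was called without wild-type replicate 1 or 2 or without Nrf2-/-Keap1-/- replicate 1 or 3, and 9 were with slide as a random block. Mean levels of stroma markers were 1.57 to 1.86 on these arrays and 1.52 to 1.83 in wild type, and of squamous markers 3.18 to 3.27 and 3.13 to 3.64, and 1 of 10 endothelial markers rose. Mean levels of smooth muscle markers were 2.49 to 3.03 on these arrays and 3.08 to 3.49 in wild type, which did not overlap, with 9 of 10 lower in the mean (median -0.46) and none called. Of the striated muscle markers, 8 of 10 were higher in the mean (median 0.28) and none was called. The part of these markers in the fat genes was not tested.

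**Figure D2:**
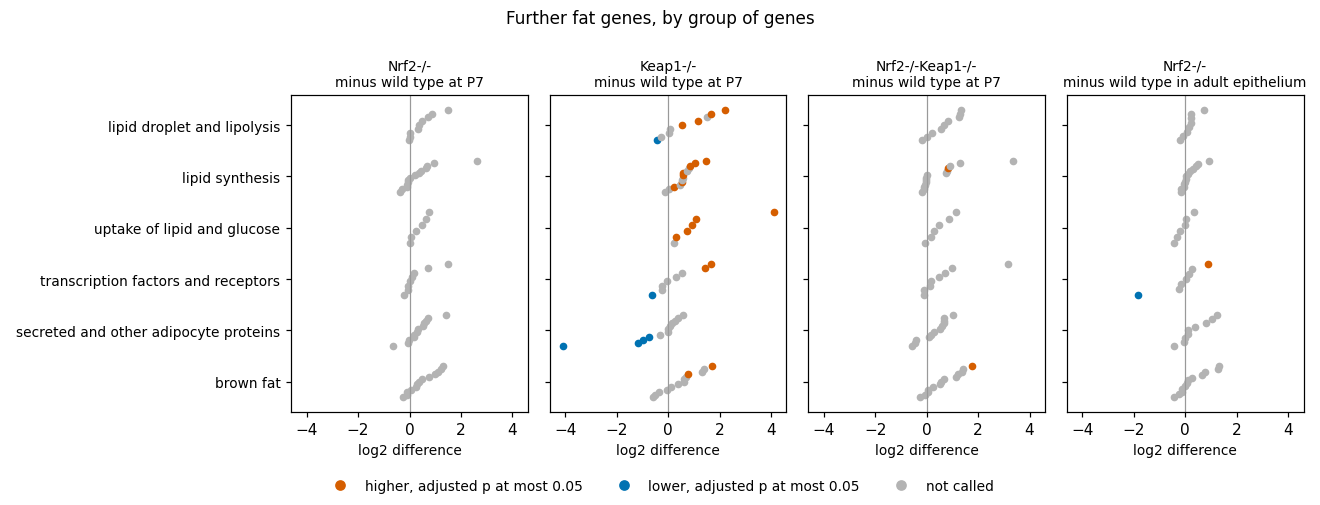
Log2 differences of the tested further fat genes, a point for each gene, by role of the gene (rows), for 3 genotypes against wild type at P7 and for Nrf2-/- against wild type in adult epithelium; colours mark genes called by limma. In Keap1-/- esophagi 20 genes were higher and 6 lower, and in Nrf2-/-Keap1-/- the 2 called genes were higher.

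Set directly against Nrf2-/-Keap1-/- esophagi, Keap1-/- had 13 of 62 list genes higher (21%; 15.1% of all genes) and 13 lower (21%; 18.3% of all), with a median of -0.06. The higher genes included Fabp5 (3.81 ± 0.37 SE, limma adjusted p = 4.46e-05), Cebpa (1.54 ± 0.18, adjusted p = 0.000152), Pparg (1.18 ± 0.28, adjusted p = 0.00914) and the fatty acid transporter Slc27a1 (1.16 ± 0.14, adjusted p = 0.000166). The lower genes included Rbp4 (-3.65 ± 1.07, adjusted p = 0.0233), Mrap, an accessory protein of the melanocortin receptors of fat and adrenal (-2.60 ± 0.65, adjusted p = 0.0107), Zic1, a marker of classical brown fat (-1.93 ± 0.31, adjusted p = 0.000934), and Slc7a10 (-1.82 ± 0.22, adjusted p = 0.000183). Among the lower genes were 5 of 12 secreted and other adipocyte proteins and 4 of 8 transcription factors and receptors, and among the higher ones 6 of 14 genes of lipid synthesis. Without Keap1-/- replicate 3, 16 list genes were called, and the Rbp4 call was lost without any 1 of the Keap1-/- arrays or Nrf2-/-Keap1-/- replicate 1 (adjusted p of 0.0532 to 0.0776). Of the markers, 5 of 10 of stroma, 7 of 10 of macrophages and 2 of 10 of endothelium were lower in Keap1-/-, and 4 of 9 squamous and 3 of 10 striated muscle markers were higher, and their part was not tested.

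In adult epithelium, Nrf2-/- differed from wild type at 2 of 55 list genes, with 14 at an unadjusted p under 0.05. The adult genotypes shared no slide, so genotype and slide cannot be told apart in these differences. Ebf2, a transcription factor of brown adipocyte precursors, rose (1.82% of the list; 0.226% of all genes), from 0.90 ± 0.07 to 1.79 ± 0.03 (SD, n = 3), a difference of 0.89 ± 0.11 SE (limma adjusted p = 0.017). Pparg fell (0.22% of all genes), from 0.69 ± 0.21 to -1.15 ± 0.18, by 1.84 ± 0.15 SE (adjusted p = 0.00322). The Ebf2 call was lost without any of wild-type replicates 1 and 2 or Nrf2-/- replicates 2 and 3, while without Nrf2-/- replicate 1 the list held 5 calls; the count was 0 with median centring and 8 with each spot's own local background. With slide as a random block or scan day as a block, Pparg alone was called. Cebpa was 0.25 ± 0.14 higher (adjusted p = 0.396), Cidea -0.42 ± 0.20 (adjusted p = 0.339) and Prdm16 -0.11 ± 0.14 (adjusted p = 0.727). Mean levels of striated muscle markers were 1.70 to 2.96 in Nrf2-/- and 0.65 to 1.68 in wild-type epithelium, and 10 of 10 macrophage and 8 of 10 stroma markers had higher means in Nrf2-/-; their part was not tested.

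The effect of Nrf2 loss was also compared between the ages. No list gene of 63 differed between adult epithelium and P7 in the limma interaction, 8 had an unadjusted p under 0.05, and 0.0666% and 0.0307% of all genes were called in the positive and negative direction. For Pparg the difference between the effects was -1.63 ± 0.39 SE (adjusted p = 0.193).

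From P7 to adult epithelium in wild type, 27 of 59 list genes fell (45.8%; 22.9% of all genes) and 11 rose (18.6%; 19.9% of all). Of the brown fat genes 7 of 13 fell, including Fabp3, the fatty acid carrier of heart, muscle and brown fat (-3.78 ± 0.64 SE, limma adjusted p = 0.00282; -4.62 without P7 replicate 2), Cox8b, a subunit of cytochrome oxidase in muscle and brown fat (-3.57 ± 0.45, adjusted p = 0.000811), and Zic1, at least 10.3-fold lower because no adult array was well above background (adjusted p = 0.000112). Agt, angiotensinogen, fell as well (-3.56 ± 0.28, adjusted p = 0.000104). Fabp5 (32-fold, adjusted p = 1.56e-05), Elovl6, which lengthens fatty acids (2.08 ± 0.25, adjusted p = 0.000678), Cebpa (1.93 ± 0.15, adjusted p = 9.98e-05) and Abhd5, the activator of triglyceride lipase (1.83 ± 0.19, adjusted p = 0.00033), rose. In the same comparison 9 of 10 striated muscle, 8 of 10 stroma and 7 of 10 endothelial markers fell, as did 7 of 10 smooth muscle and 7 of 10 macrophage markers, while 4 of 10 squamous markers rose, and their part was not tested.

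Between E15.5 and P0, 14 of 62 list genes rose (22.6%; 11.3% of all genes) and none fell (8.46% of all), while 24 had an unadjusted p under 0.05. Cidea, a droplet protein of brown fat and of other lipid-rich cells, rose 17.9-fold (4.16 ± 0.73 SE, limma adjusted p = 0.00356), Cox8b 14.5-fold (3.85 ± 0.66, adjusted p = 0.00318), Zic1 8.65-fold (3.11 ± 0.32, adjusted p = 0.000177) and Dgat2, which makes triglyceride, 5.64-fold (2.50 ± 0.40, adjusted p = 0.00218). Without E15.5 replicate 1, the array that correlates with E11.5, the differences were 3.31 for Cidea and 3.18 for Cox8b. Cidea stayed between 5.34 and 6.48 on every P7 and adult array, the epithelium included. Ucp1, by contrast, was not well above background at either age. Without the 2 embryonic arrays that correlate with the other label, 14 list genes rose and 2 fell, and without P0 replicate 2, 9 rose. Over the same step 4 of 9 striated muscle, 5 of 10 macrophage and 3 of 9 squamous markers rose, and their part was not tested.

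From P0 to P7, 2 list genes rose (3.23%; 1.45% of all genes) and none fell (0.952% of all), with 8 at an unadjusted p under 0.05. They were Gpd1, which makes the glycerol backbone of triglyceride (1.15 ± 0.17 SE, limma adjusted p = 0.00712), and Mlxipl, a carbohydrate-sensing transcription factor (0.72 ± 0.12, adjusted p = 0.0104). The Mlxipl call was lost without P0 replicate 1 or 3 (adjusted p = 0.0501 and 0.0626), and the count was 5 without P7 replicate 2. Prdm16 was 1.66 ± 0.42 higher (adjusted p = 0.0733), Pparg 0.63 ± 0.31 (adjusted p = 0.411) and Cebpa -0.41 ± 0.25 (adjusted p = 0.523).

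**Figure D3:**
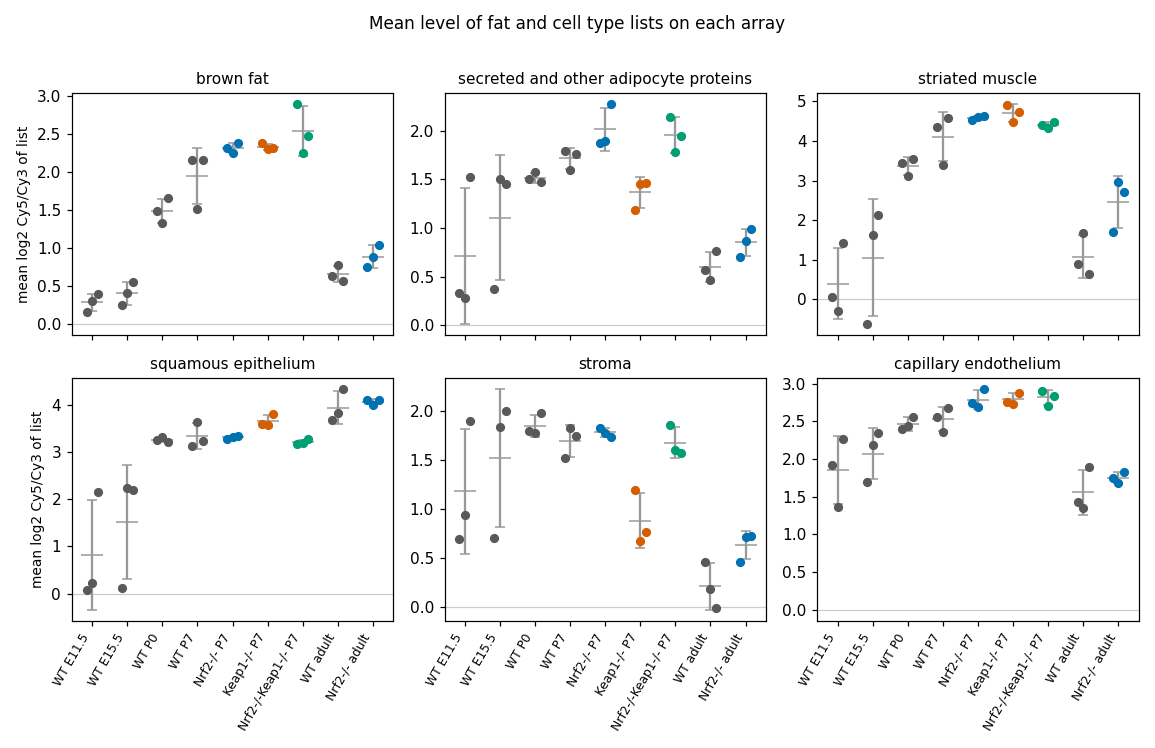
Mean log2 of Cy5 over Cy3 of 2 groups of further fat genes and 4 lists of cell type markers on each array, by group; points are arrays and bars the mean and SD of 3 arrays, and the vertical axes differ. Brown fat genes lay at 2.24 to 2.89 in Nrf2-/-Keap1-/- and 1.52 to 2.16 in wild-type P7 esophagi, and stroma markers at 0.67 to 1.20 in Keap1-/- against 1.52 to 1.83 in wild type.

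As groups, the 16 brown fat genes on the array had a mean level of 1.52 to 2.16 on the wild-type P7 arrays, 2.25 to 2.38 in Nrf2-/-, 2.30 to 2.38 in Keap1-/- and 2.24 to 2.89 in Nrf2-/-Keap1-/-. The 3 mutant groups lay above wild type without overlap and overlapped each other. The secreted and other adipocyte proteins were at 1.59 to 1.79 in wild type, 1.87 to 2.27 in Nrf2-/-, 1.18 to 1.46 in Keap1-/- and 1.78 to 2.14 in Nrf2-/-Keap1-/-, so Keap1-/- lay below the other groups on this list while it lay with the mutants on the brown fat list. Striated muscle markers were at 3.40 to 4.58 in wild type, 4.53 to 4.63 in Nrf2-/-, 4.47 to 4.91 in Keap1-/- and 4.32 to 4.48 in Nrf2-/-Keap1-/-. Several brown fat genes, such as Cox8b, Cpt1b and Fabp3, are also genes of muscle.

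Among 20882 genes ranked over the 27 arrays, with the members left out, those with the pattern most like Adipoq were NAP025923-1 (Pearson's r = 0.93), 5730419F03Rik (0.90), ENSMUST00000140327 (0.89), Pgpep1l (0.88), the lens crystallins Crygd (0.87) and Cryga (0.86), Ccdc192 (0.87), the organic cation transporter Slc22a3 (0.87), Ccdc43 (0.87) and LOC100047435 (0.86). None was in the further fat list. Over the 12 P7 arrays alone, r was 0.89 for NAP025923-1 and 0.86 for Slc22a3, and lowest among the 10 for Cryga, at 0.61. Pgpep1l, for example, was 1.64 ± 0.96 (SD, n = 3) in wild-type, 3.18 ± 0.28 in Nrf2-/-, 2.81 ± 0.39 in Keap1-/- and 4.01 ± 0.34 in Nrf2-/-Keap1-/- P7 esophagi, and 0.07 ± 0.11 in wild-type adult epithelium. All of these correlations span ages and genotypes on shared slides and are given as a description.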

How the data were processed

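RNA of 27 mouse esophagi, 3 in each of 9 groups given by the labels, was hybridised to Agilent 2-colour arrays. The authors deposited scanner files with spot intensity and local background in Cy5 and Cy3; per the labels Agilent Feature Extraction 9.1 was used, while the file headers name other versions of it and an Agilent scanner. The methods instead describe a GenePix scanner and software with Lowess normalization; the headers were followed. The log10 ratio values deposited beside them are the ratios of Feature Extraction after rounding. Of 41174 probes, 27434 (66.6%) were named by RefSeq accession, the rest by the files.

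Here, mean intensities were corrected by normexp (offset 50), with local backgrounds over 5 times the array's median set to it and those spots left out, and normalized by loess within arrays. Spots marked as outliers were kept, as the choice of the members required. Spots and probes were averaged to log2 ratio values per gene. Genes with a probe well above background on 3 or more arrays of a fit were tested with limma 3.58.1 (statmod 1.5.0, data.table version 1.17.8, R 4.3.3), with the 4 P7 genotypes, the 4 wild-type ages before adulthood, the adult genotypes, wild type at P7 and adult, and both ages with both genotypes as separate fits. Benjamini-Hochberg adjustment was over all tested genes. A bound ("at least") was taken against the dimmest probe well above background. The script was tested on simulated data.

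The members and the lists were chosen with earlier results of these data known. Text names all 9 members, called further genes (all if 8 or fewer, otherwise the 4 largest in each direction with groups that do not overlap), Pparg, Cebpa, Adrb3, Cidea and Prdm16, Nfe2l2 and Keap1, and the 10 genes most like Adipoq; genes named beyond these as examples of a role (Acly, Fasn, Dgat2) were chosen after their values were seen. Same-numbered replicates deviated together, with every correlation above 0.1, in Keap1-/- against Nrf2-/-Keap1-/- (0.36, 0.22, 0.12) and in P7 against P0 (0.12, 0.37, 0.25). For replicate 3 of the first comparison, an array with another number correlated more (0.24). The pairing is a hint from the data alone, and with the replicate number as a block the counts were 25 and 2. The number of arrays limits the precision of every value.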

Additional observations from a re-analysis of the deposited data

Results flagged for a closer look

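Plin1 was marked because the Nrf2-/- arrays lay on opposite sides of the wild-type mean at the 2 ages. All 3 were above it at P7 and all 3 below it in adult epithelium, and the log2 effects differed by -1.28, which was not tested. The adult effect itself was -0.07, the adult groups overlapped, and 1 of 3 adult Nrf2-/- arrays was well above background. Over 14 alternatives the adult effect ranged from -0.84 to 0.16 and kept its sign in 12, so a change of direction with age is not shown.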

How the results depend on the processing

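Counts of further fat genes called by limma depended on the setting in several comparisons; the causes were not tested. For Nrf2-/-Keap1-/- against wild type at P7, 2 genes were called in the analysis as reported, 0 with the processed signals or the deposited log ratios, 1 without background correction, with median centring, without marked outlier spots (46 genes then tested), without a filter on dim probes or with both channels above background, and 9 with all 27 arrays in the fit or with slide as a random block. For Keap1-/- against Nrf2-/-Keap1-/-, 26 of 62 tested genes became 17 of 46 without marked spots. For adult Nrf2-/- against wild type, 2 became 1 with processed signals, deposited ratios, slide as a random block or scan day as a block, 0 with median centring and 8 with each spot's own local background. P0 against E15.5 gave 14, and 9 with own local background. P7 against P0 gave 2, then 1 with processed signals, deposited ratios or median centring, and 6 with all 27 arrays. The interaction gave 0, and 1 with own local background. With the replicate number as a block, the counts were 1 for Nrf2-/-Keap1-/- against wild type and 1 for adult Nrf2-/-, and no other count moved by more than 1.5 times; outside the comparisons named in the processing the samples share only a number.

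Leaving out each replicate in turn gave 0 to 3 calls for Nrf2-/-Keap1-/- against wild type, 16 to 24 for Keap1-/- against Nrf2-/-Keap1-/-, 1 to 5 for adult Nrf2-/-, 9 to 12 for P0 against E15.5, 1 to 5 for P7 against P0 and 0 to 1 for the interaction, where the call came without wild-type P7 replicate 1. Across all settings, Keap1-/- against wild type gave 18 to 31 calls, adult against P7 28 to 39, and Nrf2-/- at P7 gave 0 in each. Nnat in Keap1-/- reversed to 0.0538 with processed signals and with deposited ratios. Of 1236 values of named genes, 1169 stayed on the same side of the threshold, with the direction kept where the gene was called. Genes called in neither setting could change sign and still be counted, as for Pparg in Nrf2-/- at P7 (-0.47 to 0.14). Of 504 member differences, 475 kept their sign. In Nrf2-/-Keap1-/- against wild type, the log2 difference ranged from 2.89 to 4.55 for Adipoq, 4.10 to 5.99 for Cfd, 2.88 to 4.37 for Plin1, 2.16 to 4.19 for Cidec and 3.05 to 5.33 for Ucp1. The alternative without the 2 embryonic arrays was chosen after seeing the data. Members not well above background have no measured level, which limits Lep, Retn and the wild-type values of Ucp1.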
